A study of Mus musculus with 4 samples.

Results

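Late cortical radial glia at embryonic day E18.5 were taken from 1 droplet library of single mouse cells by their unique molecular identifiers (UMIs). A barcode belonged to the group if it had at least 1000 detected genes, at most 10% mitochondrial UMIs, at least 1 UMI each of Pax6, Hopx and Slc1a3, none of Pdgfra, Eomes and Gad2, and fewer than 3 of the 6 ependymal genes Crym, Fxyd1, Riiad1, Tppp3, S100a6 and Nme5. The gate kept 97 of the library's 1148 usable barcodes, out of 6341 barcodes in the series. These 97 members were chosen by their own counts, so the levels of the gate genes describe the choice and are no result, and no test was made on them.

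Radial glia are the stem cells of the developing forebrain. Their cell bodies lie near the ventricle and a long fibre reaches the brain surface. In the cortex they first make excitatory neurons, many of them through intermediate progenitors that express Eomes, and later turn to astrocytes and oligodendrocyte precursors. Hopx and Tnc mark the outer radial glia of primates, and Hopx also marks neural stem cells that persist after birth.

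The embryos carried a Nestin-GFP and a DCX-mRFP reporter, and cells with green fluorescence were sorted from 2 regions, the cortex and the ganglionic eminence (GE). The GE lies in the ventral forebrain and makes GABAergic neurons. The GFP reporter marks progenitors, so neurons and non-neural cells are present only as far as the sort let them through. Each region was sampled at E15.5 and at E18.5, which makes 4 groups of 1 library each. The sources used here do not state how many embryos were pooled or their sex. The libraries hold 879 to 3139 barcodes and 14528712 to 31173997 UMIs.

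The labels and the names of the deposited files give opposite regions for every library. The library of the 97 members is labelled GE E18.5, while its file names say cortex. Emx1, a transcription factor of the cortical primordium, stood at 38.0 UMIs per 1000000 counted (CPM) in its kept barcodes and at 1.23 CPM in the library labelled cortex E18.5. Dlx2, a transcription factor of the GE, stood at 186 CPM against 768 CPM, and Nkx2-1, which marks the medial GE, at 1.81 CPM against 115 CPM. In both libraries the regional genes go with the file name and against the label. Below, the members' library is called the library labelled GE E18.5 and the other libraries are likewise called by their labels. No member barcode occurs in another library.

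In the library labelled GE E18.5 the gate took 8.45% of the kept barcodes (exact 95% interval 6.91% to 10.2%). The same gate found 5 of 1168 barcodes in the library labelled cortex E15.5, 18 of 3104 in that labelled cortex E18.5 and 14 of 876 in that labelled GE E15.5. The library with the most members was thus not the deepest, since its kept barcodes had a median of 10124 UMIs against 23447 in the library labelled GE E15.5. In that E15.5 library Eomes UMIs were found in 86.0% of the kept barcodes, and 133 barcodes missed the gate only through Eomes. Hopx UMIs were found in 25.2% of its kept barcodes, against 21.7% in the library labelled GE E18.5. Intervals here and below cover counting error only.

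Members held 4211 to 36719 UMIs, with a median of 10998, and a median of 3846 genes. Most of the barcodes just outside the gate lacked Hopx alone: 145 barcodes met every other criterion with 0 Hopx UMIs, at a median of 10280 UMIs. A further 18 missed only through Pax6, 25 through Eomes, 19 through Pdgfra, 14 through the ependymal genes and 6 through Gad2. No barcode missed through Slc1a3 alone. Just inside the gate, 43 members had a single Hopx UMI and 22 a single Pax6 UMI, while every member had at least 2 UMIs of Slc1a3. The median member carried 2 UMIs of Hopx, 3 of Pax6 and 15 of Slc1a3. Both Xist and Y-linked UMIs, a sign of mixed barcodes where embryos of both sexes are pooled, occurred in 12 members (12.4%), in 11.7% of the other kept barcodes and in 4.83% of the barcodes that lacked only Hopx. In the library labelled GE E15.5 both occurred together in 55.7% of kept barcodes, and in 10.4% of its gated barcodes described below. The part of such barcodes in the results was not tested beyond leaving them out.

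Tnc encodes tenascin C, a glycoprotein of the extracellular matrix around stem cells, and is the marker of late radial glia that the gate did not use. Members carried 0 to 34 Tnc UMIs with a median of 6, and 87 of 97 had at least 1. Summed over members it reached 717 CPM (95% interval 666 to 771), against 446 in the barcodes that lacked only Hopx, 221 in the other kept barcodes of the library, 92.9 CPM in the E15.5 barcodes described below and 236 CPM in the other E18.5 library. The members stood highest, and the order of the other groups was Hopx-lacking, other E18.5 library, other kept barcodes and E15.5. The 95% intervals of the other E18.5 library and of the other kept barcodes overlap. A Tnc UMI was found in 28.0% of the 125 barcodes with at least 3 Gad2 UMIs, which should lack the gene, at a median depth of 6967 UMIs. After thinning every cell to 4000 UMIs the shares were 80.4% of members and 17.6% of those Gad2 barcodes. Both Xist and Y-linked UMIs occurred in 26.4% of the Gad2 barcodes, so here and below they are no clean background.

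**Figure D1:**
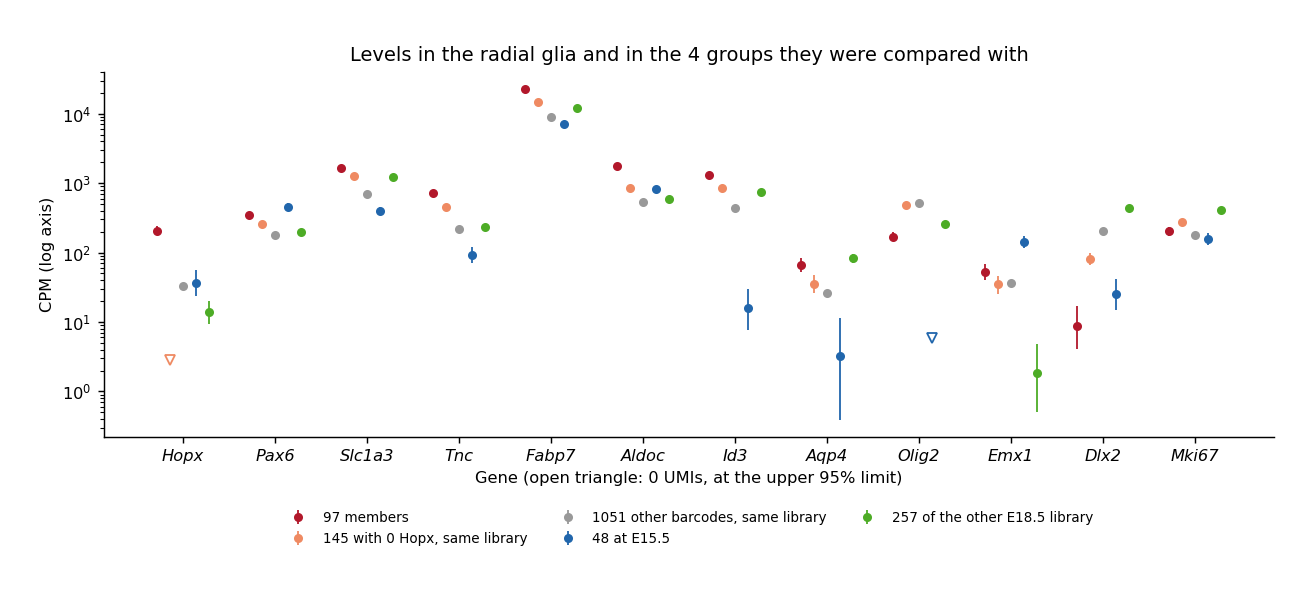
CPM of 12 genes on a log axis, from summed UMIs of the members and of the 4 groups they were compared with; bars are exact 95% Poisson intervals and open triangles stand at the upper limit of a group with 0 UMIs. Tnc, Fabp7 and Aldoc are highest in the members, Dlx2 is lowest there at 8.86 CPM, and Olig2 has no UMI in the gated E15.5 barcodes. Hopx, Pax6 and Slc1a3 belong to the gate.

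Hopx lies at chr5:77086988-77115121, Pax6 at chr2:105668900-105697364, Slc1a3 at chr15:8634124-8710764 and Tnc at chr4:63959785-64047015 (GRCm38). Hopx summed to 208 CPM in members and 33.0 CPM in the other kept barcodes, Pax6 to 351 and 179 CPM, and Slc1a3, a glutamate transporter of glia, to 1632 and 691 CPM. These differences follow from the gate.

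The members were first compared with the 1051 other kept barcodes of their library, the comparison that asks how the radial glia stand out from their neighbours. A gene was measured if it reached 20 CPM in at least 1 of the 2 groups and was called if the groups differed by 2-fold or more and the 95% interval of the ratio left out 1. Of 7970 genes measured, 270 were higher in members (3.39%) and 378 were lower (4.74%), with a median log2 ratio of -0.03. The members were chosen on UMIs of this library, so the counts below describe the choice and support nothing by themselves. The other barcodes are a mix. It includes 206 barcodes with at least 3 Pdgfra UMIs, 129 with at least 3 Eomes UMIs and 125 with at least 3 Gad2 UMIs. It also includes 61 with at least 3 of the 6 ependymal genes, and the gate removed all of these from the members. Those 61 were near the members in some lists. Without gate genes, astrocyte genes summed to 11055 CPM in them and 11826 CPM in members, and radial glia genes to 37791 and 42286 CPM. Primate outer radial glia genes summed to 3878 and 4551 CPM, and matrix and adhesion genes to 6159 and 7372 CPM. BMP and ID genes were further apart, at 1663 and 3160 CPM.

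Astrocyte genes were higher in members as a group. Of 23 measured genes of that list 13 were higher and 0 lower, with a median log2 ratio of 1.04. Aldoc, the aldolase of astrocytes, stood at 1743 CPM in members and 541 CPM in the other barcodes, 3.22-fold higher (3.05 to 3.40). Aldh1l1, a folate enzyme used to mark astrocytes, was 2.77-fold higher at 296 CPM, and a UMI of it was found in 78 of 97 members. Slco1c1, a thyroid hormone transporter, was 2.96-fold higher, and Id3, an inhibitor of neurogenic transcription factors, was 2.93-fold higher at 1298 CPM. Genes of mature astrocytes were at low levels. Aqp4, the water channel of astrocyte end-feet, had 66.9 CPM in members and 25.9 CPM in the others, and Gfap, the intermediate filament of astrocytes, had 35.4 CPM and 12.5 CPM. Aqp4 was found in 31 members and Gfap in 23, and after thinning these shares were 18.6% and 10.3%, against 2.4% and 1.6% of the Gad2 barcodes. S100b, Gjb6, Ntsr2 and Agt, which belong to the same list, had 0 UMIs in members.

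Radial glia genes other than the gate genes were higher in 6 of 21 cases and lower in none, with a median log2 ratio of 0.70. Fabp7, the fatty acid binding protein of radial glia, was the most abundant of them at 22914 CPM in members, 2.57-fold higher than in the other barcodes at 8928 CPM. Each member carried it, from 15 to 951 UMIs with a median of 211. Glul, the glutamine synthetase of glia, was 2.23-fold higher at 829 CPM. Nes, whose regulatory sequence drives the GFP reporter, stood at 234 CPM and 160 CPM, a ratio of 1.46 (1.27 to 1.68), and Sox2 and Sox9 were within 2-fold.

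The list of primate outer radial glia genes had 4 of 7 measured genes higher and 0 lower, with a median log2 ratio of 1.21. Besides Tnc, the integrin subunit Itgb5 was 2.32-fold higher, and Ptprz1, a receptor phosphatase of glial progenitors, had 2232 CPM against 1284 CPM, 1.74-fold and so under the fold. Lifr, the receptor subunit for leukaemia inhibitory factor, had 24.6 CPM in members and 15.9 CPM in the others. Fam107a, another gene of that list, had 0 UMIs. Of the truncated radial glia list, Cryab, Fbxo32, Pdgfd and Anxa1 had 0 to 5 UMIs each, summed over members.

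**Figure D2:**
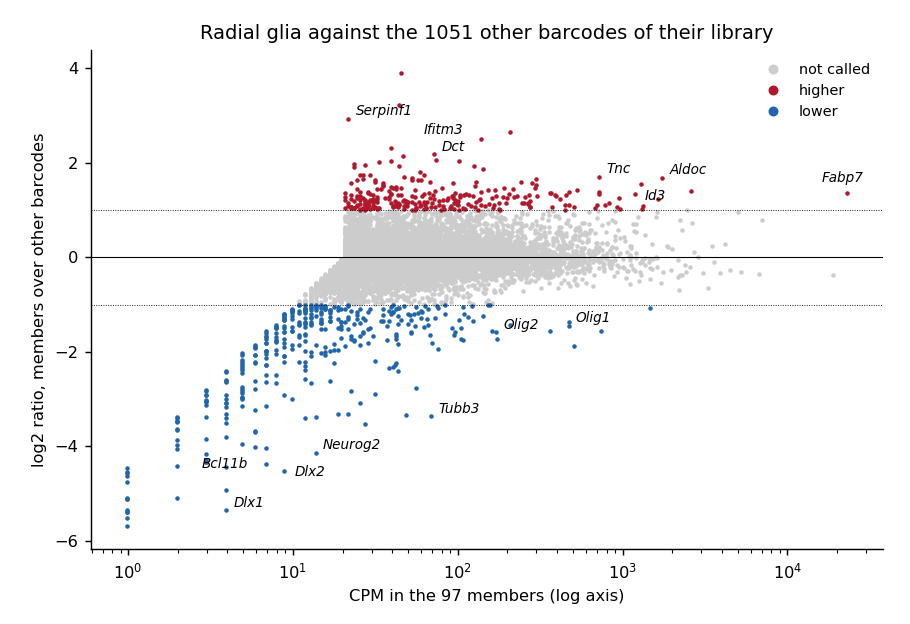
Each point is a gene measured between the 97 members and the 1051 other kept barcodes, by its CPM in members (log axis) and its log2 ratio; coloured points are the called genes, dotted lines mark 2-fold, and genes with 0 UMIs in members are not drawn. Tnc, Aldoc, Id3 and Fabp7 are higher at high levels, while the genes lower by the largest folds, such as Dlx1 at 3.94 CPM, are close to absent in members.

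Notch signalling keeps radial glia in the stem cell state: ligands on neighbouring cells activate Notch receptors, which switch on Hes and Hey repressors of neurogenesis. In members the receptor Notch2 (215 against 79.5 CPM) and the effectors Hes1 (189 against 77.6 CPM), Hes5 (946 against 395 CPM) and Hey1 (153 against 56.9 CPM) were higher than in the other barcodes, by 2.39-fold to 2.71-fold. The ligands Dll1 and Dll3 were lower, by 10.5-fold (6.0 to 20.4) and 8.42-fold (5.73 to 12.9). Dll1 stood at 11.8 CPM in members and 124 CPM in the others, with a UMI in 8 members. Hes6, which counteracts Hes1, and the glycosyltransferase Mfng were lower too. The list as a whole had 4 genes higher and 4 lower of 14, with a median log2 ratio of 0.09.

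The sequence just upstream of Hes5 shows the promoter through which the pathway's most abundant effector here is read. It covers the 100 bases before the annotated start, chr4:154960823-154960922 on the plus strand (RefSeq, GRCm38.p6), with the core of the Notch-dependent factor Rbpj's recognition motif, TGGGAA, in capitals.
Hes5 upstream: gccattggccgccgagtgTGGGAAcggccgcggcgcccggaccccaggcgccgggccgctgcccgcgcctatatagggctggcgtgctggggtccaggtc
On both strands (TGGGAA and TTCCCA) the 250 bases before the start hold 2 matches, 1 of them in the stretch shown. Among 32851 promoter windows of that length 21.6% hold at least 1 match. Rbpj itself was at 92.5 CPM in members and 96.6 CPM in the others.

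BMP and ID signalling restrains neurogenesis and favours astrocytes. Its list had 5 of 13 measured genes higher and 0 lower, with a median log2 ratio of 0.86. Id1 was 2.48-fold higher, Id4 2.62-fold and the receptor Bmpr1b 2.76-fold. Nog, a secreted BMP inhibitor and so opposed to this signalling, was 3.10-fold higher at 53.1 CPM. Extracellular matrix and adhesion genes had 6 of 16 higher and 0 lower with a median of 0.76, among them Sparcl1, a secreted matrix protein of glia, at 718 against 285 CPM. Of 13 serine and fatty acid genes 4 were higher, including the serine synthesis enzymes Phgdh and Psph and the acyl-CoA synthetase Acsbg1. Of 18 cholesterol synthesis genes 1 was called, Hmgcs1, at 2.02-fold, or 1.95-fold without its highest member. A ratio above 1 was seen for 17 of the 18, and their median log2 ratio was 0.69.

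Several lists of neuronal and progenitor genes were lower in members. Of 9 measured ventral patterning genes 8 were lower and 0 higher, with a median log2 ratio of -4.33. Dlx1 had 4 UMIs in all members, 3.94 CPM against 161 CPM, 40.9-fold lower (15.9 to 150). Dlx2 had 9 UMIs in 3 members, 22.9-fold lower (12.03 to 50.1). Of 9 excitatory neuron genes 8 were lower, of 10 GABAergic genes 9, and of 8 neurogenic progenitor genes 7, with 0 higher in each. The summed level of the GABAergic list differed less, at 1077 against 1362 CPM, than that of the excitatory list, at 383 against 2012 CPM. The median log2 ratios of their measured genes were -4.00 and -3.14, so the GABAergic sum does not describe most genes of its list. Tubb3, the neuronal tubulin, stood at 68.9 against 708 CPM. Dcx, the source of the red reporter, stood at 21.6 against 216 CPM. Neurog2, which commits cortical progenitors to neurons, was 17.6-fold lower at 13.8 CPM. After thinning it was found in 5.15% of members, below the 8.0% of the Gad2 barcodes, so this share is not above that background.

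Oligodendrocyte lineage genes were lower in members in 8 of 9 cases and higher in none, with a median log2 ratio of -1.99. Olig1 and Olig2, transcription factors of glial progenitors, were lower but far from absent, at 471 against 1280.2 CPM and 170 against 511 CPM. Sox10, which marks committed oligodendrocyte precursors, had 3 UMIs in all members, 17.9-fold lower (6.10 to 87.1). An Olig2 UMI occurred in 44 members, and after thinning in 32.0% of members against 19.2% of the Gad2 barcodes and 89.8% of barcodes with at least 3 Pdgfra UMIs. Cell cycle genes did not separate the groups: 0 of 24 S phase genes and 0 of 26 genes of G2 and M phase were called, with median log2 ratios of -0.06 and 0.38.

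Markers of other cell types were at or near 0 in members. All 5 choroid plexus genes were at 0, as were 7 of 8 microglial genes and 7 of 8 endothelial genes. The summed levels of the choroid plexus, microglial, endothelial, fibroblast, erythroid and Cajal-Retzius lists were 0 to 11.8 CPM in members, and those of mural and ungated ependymal genes 66.9 and 15.7 CPM. Of the mural list, Pdgfrb held 42 UMIs, at 41.3 CPM against 29.8 CPM in the others.

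The top of the ranking by interval bound was not all glial. Its 12 higher genes were Isg15, Bst2, Ifitm3, Serpinf1, Dct, Cntnap2, Trim47, Slc14a2, Col9a1, Aldoc, Emid1 and Tnc, and 3 of them belong to the interferon response. Most UMIs of those 3 lie in 1 member. Over 28 interferon-response genes, a list drawn up after the values were seen, that member held 243 of the members' 563 UMIs (43.2%) with 22 of the genes detected, the next member held 43 and the median member 2. It held 85 of 141 Ifitm3 UMIs, 29 of 46 Isg15 UMIs and 28 of 45 Bst2 UMIs. Leaving out the highest member of each gene, Ifitm3 was 2.27-fold higher than in the other barcodes (1.67 to 3.04). Isg15, Bst2 and Serpinf1 were then under the CPM minimum and so not called, at ratios of 5.59 (2.91 to 10.4), 3.58 (1.94 to 6.31) and 6.29 (3.30 to 11.7).

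**Figure D3:**
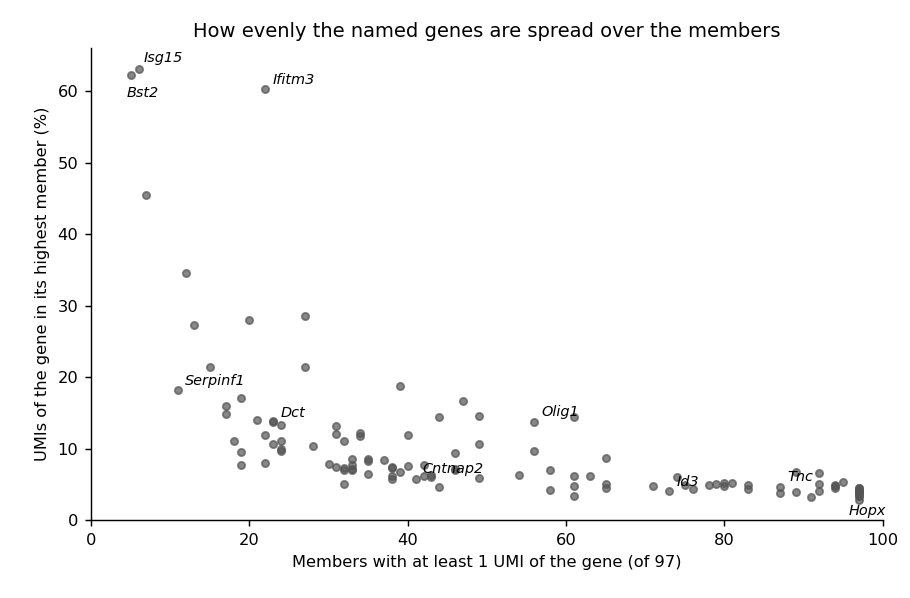
For each named gene with at least 20 UMIs in members, the number of members with a UMI (x axis) and the percent of the gene's UMIs that its highest member holds (y axis). Isg15, Bst2 and Ifitm3 lie at 60.3% or more, whereas Tnc and Id3 are spread over most members.

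The other leading genes were spread wider. Dct, dopachrome tautomerase, best known from melanin synthesis in pigment cells, was found in 23 members with at most 10 UMIs in one, and stood at 71.8 CPM against 15.8 CPM, 4.54-fold higher (3.40 to 6.01). Cntnap2, an adhesion protein of the neurexin family, occurred in 41 members at 101 CPM, 4.12-fold higher (3.25 to 5.20). Slc14a2, a urea transporter, was 3.80-fold higher at 126 CPM, with 24 of its 128 UMIs in 1 member. Emid1, a matrix protein, was 3.64-fold higher at 142 CPM and Col9a1, a collagen IX chain, 4.42-fold at 46.2 CPM. Leaving out each gene's highest member, which can only lower the members' level, 193 of the 270 higher genes were called, and 480 genes were lower.

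The nearest neighbours of the members are the 145 barcodes of the same library that met the gate but had 0 Hopx UMIs. This comparison asks what differs with a detected Hopx UMI among cells alike in the other criteria. Of the members 43 had a single Hopx UMI, so 0 UMIs need not mean that a cell lacks Hopx. The comparison was added after the data were seen, in place of a planned one with barcodes that lacked only Pax6. Of those there were 18, under the minimum of 20. Of 7751 genes measured, 132 were higher in members (1.7%) and 105 lower (1.35%), with a median log2 ratio of -0.01. Leaving out each gene's highest member, 70 were higher and 176 lower. Asking for 1 more transcript favours deeper cells, and the medians were 10998 and 10280 UMIs. Against Hopx-lacking barcodes of at least 8105 UMIs 200 genes were higher and 95 lower. The part of depth was not tested.

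Genes higher in the Hopx-positive members were led by Dct, at 71.8 against 5.42 CPM, 13.2-fold (6.11 to 34.1). A Dct UMI was found in 23.7% of members and 2.76% of the Hopx-lacking barcodes, or 12.4% and 1.38% after thinning. Slc14a2 was 4.64-fold higher (3.17 to 6.96), Cav2, a caveolin, 4.69-fold (2.50 to 9.43), Cntnap2 3.63-fold, Loxl1, a collagen cross-linking enzyme, 3.64-fold, and Garem, an adaptor of growth factor receptors, 4.23-fold. Bst2 and Ifitm3 stand here as well, with most of their UMIs in the member described above. Without its highest member Ifitm3 was 1.67-fold, under the fold, and Bst2 was under the CPM minimum at 2.72-fold (1.11 to 7.28). Of 23 astrocyte genes 2 were higher, Aldoc at 2.06-fold (1.91 to 2.23) and Gfap at 2.86-fold, and 0 lower, with a median log2 ratio of 0.41. Without its highest member, which held 80 of 1772 UMIs, Aldoc was just under the fold. Tnc differed by 1.61-fold (1.44 to 1.80), less than the fold required. No radial glia gene outside the gate and no gene of S phase or of G2 and M phase was called.

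The Hopx-lacking barcodes had more of the ventral and committed progenitor genes. Of 7 ventral patterning genes 6 were lower in members and 0 higher, with a median log2 ratio of -2.83. Dlx1 stood at 3.94 against 79.0 CPM, 20.1-fold lower (7.61 to 75.1), and Gsx2 at 2.95 against 49.6 CPM. Of 6 genes of glial intermediate progenitors 5 were lower and 0 higher, with a median of -1.43. Olig2 was 2.80-fold lower (2.37 to 3.34), Egfr, the epidermal growth factor receptor, 2.34-fold lower (1.77 to 3.13), and Dll1 7.22-fold lower (3.97 to 14.4). Gadd45g, a gene induced at commitment, was 4.93-fold lower and Rgs16, a regulator of G protein signalling, had 1 UMI in members and 42.6 CPM in the Hopx-lacking barcodes, a ratio of 43.3 with an interval of 7.46 to 1742. Dlx2 was found in 8.97% of the Hopx-lacking barcodes after thinning and in 2.06% of members. Vtn and Meg3 were also called lower, but 26 of 27 Vtn UMIs and 99 of 149 Meg3 UMIs of the Hopx-lacking group lay in 1 barcode, and without it neither was called.

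The change from E15.5 was described against the library labelled GE E15.5, whose file names say cortex as the members' do. Its full gate held 14 barcodes, too few for the planned comparison, so the 48 barcodes that met the gate with or without Hopx were used, a choice made after the data were seen. They had a median of 14554.5 UMIs, and 29.2% had a Hopx UMI. Age and library cannot be told apart, since each age is 1 library. The comparison also contrasts Hopx, which every member carries. Of 7791 genes measured, 972 were higher in the E18.5 members (12.5%) and 356 lower (4.57%), with a median log2 ratio of 0.06. Without the Hopx criterion on both sides 888 were higher and 281 lower. Of the named genes, 98 then kept their call or lack of one, 9 lost a call, 6 gained one and 2 reversed.

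Astrocyte genes were far higher at E18.5 than at E15.5. Of 23 measured 20 were higher at E18.5 and 0 lower, with a median log2 ratio of 3.20. Id3 stood at 1298 CPM in members against 16.0 CPM at E15.5, 81.0-fold higher (43.9 to 169). Apoe, the lipid carrier of astrocytes, had 1616 against 67.3 CPM, 24.0-fold higher (17.7 to 33.5). Slc1a2, the second glial glutamate transporter, had 173 against 3.20 CPM, and Sparcl1 718 against 28.8 CPM. Aldoc differed less, by 2.12-fold (1.92 to 2.35), and Gja1 and Fgfr3 stayed within 2-fold. Gfap was at 0 in the E15.5 barcodes, which makes the members at least 7.37-fold higher, counted against 3 UMIs over that group.

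Glial progenitor genes with 0 UMIs in the gated E15.5 barcodes were found in members. The rest of that E15.5 library did hold them, with Olig1 at 31.1 CPM, Olig2 at 13.0 CPM and Egfr at 1.36 CPM. Olig1 and Olig2 had 0 UMIs in the 48 E15.5 barcodes and 479 and 173 UMIs in members, at least 98.1-fold and 35.4-fold higher. Egfr, also at 0, was at least 13.7-fold higher and Grm5, a metabotropic glutamate receptor, at least 17.4-fold. Serpine2, a secreted protease inhibitor, stood at 256 against 3.20 CPM, Htra1, a secreted protease, at 192 against 3.20 CPM, and S100a16 at 155 against 1.60 CPM. The E15.5 values of these 3 genes are 1 or 2 UMIs, so their folds are loose: for S100a16 the interval ran from 17.2 to 3858.

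Extracellular matrix and adhesion genes followed the same direction, with 12 of 16 higher and 0 lower and a median log2 ratio of 2.05. Tnc was 7.72-fold higher (5.91 to 10.3), Bcan 9.22-fold, Cspg5 15.4-fold and Ptprz1 7.22-fold, the first 3 being matrix proteins or proteoglycans. The primate outer radial glia list had 6 of 7 genes higher and 0 lower, with a median of 2.36. In the gp130 and STAT list, the pathway through which cytokines induce astrocytes, 4 of 6 were higher, among them Stat3 at 3.01-fold (1.51 to 6.67) and Jak2 at 2.83-fold. Notch genes had 4 of 13 higher and 1 lower: Hes5 was 3.49-fold higher, while Hes1 (189 against 223 CPM) was within 2-fold.

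Core radial glia genes differed less between the ages. Vim, the intermediate filament of radial glia, stood at 2657 CPM in members and 2545 CPM at E15.5, and Nes at 234 and 187 CPM. Pax6, at 351 and 455 CPM, was required in both groups by the gate, so its level is no result. Of 21 radial glia genes outside the gate 6 were higher and 0 lower, with a median log2 ratio of 0.46. Fabp7 was 3.27-fold higher and Glul 5.08-fold.

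Lists of neuronal, dorsal patterning and mitotic genes held genes lower at E18.5. Of 10 excitatory neuron genes 7 were lower and 0 higher, with a median log2 ratio of -3.26. Neurod6 stood at 16.7 against 367 CPM, 21.9-fold lower (13.4 to 38.3), and Neurod2 at 6.89 against 195 CPM. Neurog2 was 12.2-fold lower (6.96 to 23.1). Of 11 dorsal patterning genes 6 were lower and 0 higher, with a median of -1.005. Emx1 stood at 53.1 against 143 CPM, 2.68-fold lower (1.89 to 3.83), and Fezf2, which specifies deep-layer neurons, was 3.98-fold lower. Hmga2, a chromatin protein of young stem cells, had 3 UMIs in members and 35.2 CPM at E15.5, a ratio of 11.9 (3.59 to 62.3), and the RNA-binding protein Igf2bp1 was 2.61-fold lower. Without the Hopx criterion on both sides the log2 ratio of Igf2bp1 was -0.8853 in place of -1.386, and so under the fold. Of 26 genes of G2 and M phase 11 were lower and 0 higher with a median of -0.94, Ube2c, a mitotic ubiquitin enzyme, by 4.41-fold and Aurka, a mitotic kinase, by 4.28-fold. None of 24 S phase genes was called, and Mki67 (203 against 159 CPM) was within 2-fold. Dct, which set the members apart in their own library, was also found in 27.1% of the E15.5 barcodes, at 46.4 CPM, a ratio of 1.55 (0.99 to 2.47).

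A few of the genes lower at E18.5 rest on 1 E15.5 barcode. All 89 Reln UMIs, 38 Nhlh2, 35 Snhg11 and 19 Calb2 UMIs of the E15.5 group came from it, as did 65 of 97 Pcp4 UMIs, and it also held UMIs of Lhx1, Lhx5 and Trp73, which together with Reln mark Cajal-Retzius neurons. Without it Nhlh2, Snhg11, Calb2 and Reln were not measured. Dlx1, Dlx2 and Sp9 were called lower at E18.5 as well, but 12 of 23, 9 of 16 and 9 of 16 of their E15.5 UMIs lay in 1 barcode and without it they fell under the CPM minimum.

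**Figure D4:**
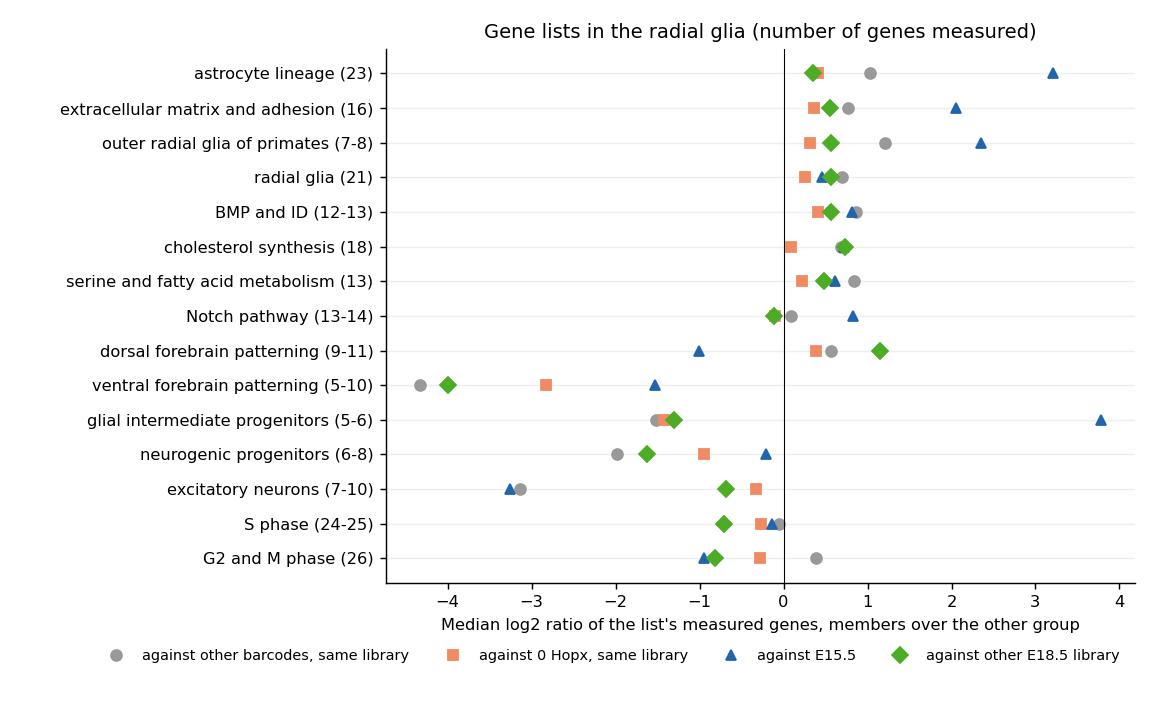
Median log2 ratio of the measured genes of 15 lists, members over each of 4 groups; the numbers of genes measured stand beside the names. The E15.5 comparison gives 3.20 for astrocyte genes and -0.94 for genes of G2 and M phase, whereas ventral patterning genes are below 0 in every comparison shown. Against E15.5 that position rests on few UMIs, and Dlx1 and Dlx2 turn to log2 ratios of 0.32 and 0.96 when the Hopx criterion is left out on both sides.

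The library labelled cortex E18.5, with GE in its file names, gave 257 barcodes that met the gate with or without Hopx, at a median of 10265 UMIs. Only 18 of them had Hopx, below the planned minimum, so all 257 were used, a choice made after the data were seen. This comparison sets the file-name regions side by side at E18.5, with 1 library each. It also contrasts Hopx, which every member carries, so values without the Hopx criterion on both sides are given for Dlx1, Dlx2, Six3 and Dct. Of 7743 genes measured, 383 were higher in members (4.95%) and 275 lower (3.55%), with a median log2 ratio of 0.05. Without the Hopx criterion on both sides 224 were higher and 155 lower.

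Dorsal and ventral patterning genes split. Of 9 dorsal genes 6 were higher in members and 1 lower, with a median log2 ratio of 1.15. Emx1 stood at 53.1 against 1.85 CPM, 28.7-fold higher (10.6 to 109), Tfap2c, a transcription factor of cortical basal progenitors, 31.0-fold (12.7 to 98.3), and Fezf2 8.32-fold. Of 10 ventral genes 9 were lower and 0 higher, with a median of -4.00. Dlx1 stood at 3.94 against 385 CPM, 97.7-fold lower (38.0 to 360), Dlx2 at 8.86 against 437 CPM, and Gsx1 at 0 against 32.9 CPM. Without the Hopx criterion on both sides Dlx1 stood at 45.9 against 385 CPM and Dlx2 at 49.8 against 437 CPM, and their log2 ratios were -3.07 and -3.13 in place of -6.61 and -5.62. Six3, a transcription factor of the ventral forebrain, had 1 UMI in members and 76.5 CPM in the other library. Dct had 73 UMIs in members and 0 in the other library, at least 51.7-fold higher. Without the Hopx criterion on both sides the log2 ratio of Six3 was -5.46 in place of -6.28, and the lower bound for Dct 4.64 in place of 5.69.

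Most astrocyte genes were within 2-fold between these E18.5 groups. Of 23 measured 4 were higher in members and 0 lower, with a median log2 ratio of 0.35. Slco1c1 stood at 282 against 37.5 CPM, 7.52-fold higher, and Aldoc was 2.96-fold higher (2.75 to 3.18), whereas Apoe (1616 against 1923 CPM) and Aqp4 (66.9 against 82.5 CPM) had ratios of 0.84 and 0.81. Tnc was 3.03-fold higher (2.71 to 3.41). Among other higher genes were Lpar1, a receptor for lysophosphatidic acid, at 17.0-fold, the homeobox gene Prrx2 at 22.8-fold and Tmem132b at 13.4-fold. Genes of G2 and M phase were lower in 8 of 26 cases and higher in none, with a median of -0.82, and S phase genes in 5 of 25. Top2a stood at 376 against 951 CPM and Mki67 at 203 against 412 CPM. Isg15 and Bst2 were also called higher. Without their highest member they were under the CPM minimum, at ratios of 36.4 (5.70 to 1521) and 7.28 (2.58 to 25.2).

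The members differed among themselves beyond counting error. Over 5877 genes with a mean of at least 0.3 UMIs and a UMI in at least 10 members, the variance was a median of 1.10 times what Poisson counting at each cell's depth gives, and 455 genes (7.74%) exceeded 2. The ratio was largest for Fabp7, the nuclear RNA Malat1 and the histone gene Hist1h2ap, followed by Ifitm3, Actb, Hist1h2ae, Id3, Hmgb2, Ptn, Apoe, Olig1 and Cst3. Hist1h2ap ran from 0 to 112 UMIs with a median of 1 and was found in 49 members. Olig1 ran from 0 to 66 with a median of 1, and Apoe from 0 to 109 with a median of 12.

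Astrocyte genes made up 0.047% to 4.74% of a member's UMIs with a median of 1.03%, and genes of G2 and M phase 0.014% to 2.75% with a median of 0.200%. Across the 97 members the astrocyte share had a Spearman correlation of 0.64 with the radial glia share, 0.81 with the extracellular matrix share (2 genes in common), -0.37 with the S phase share and -0.36 with the G2 and M share. Members share 1 library, and depth moved with these measures: its correlation was -0.34 with the astrocyte share and 0.47 with the G2 and M share. In cells thinned to 4000 UMIs the astrocyte and G2 and M shares correlated at -0.27. All of these are descriptions across cells.

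**Figure D5:**
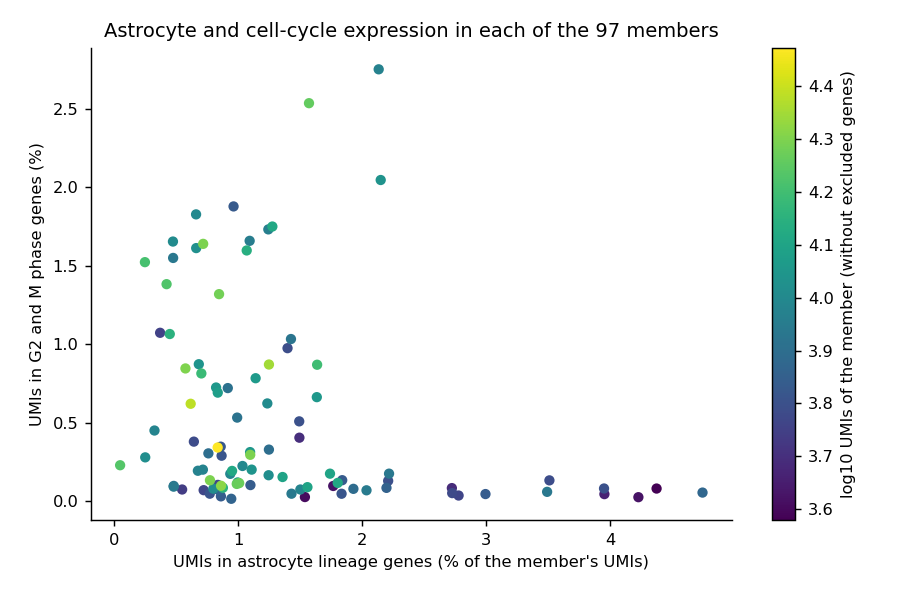
Each point is 1 of 97 members, by the percent of its UMIs in astrocyte lineage genes (x axis) and in genes of G2 and M phase (y axis), coloured by its log10 UMIs without the excluded genes. Members with the highest astrocyte shares, up to 4.74%, lie at low G2 and M shares, and many of them are shallow.

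An Mki67 or Top2a UMI, a sign of cycling, was found in 61 members, with a median depth of 12692 UMIs against 8393 in the 36 without. Summed astrocyte genes stood at 9926 CPM in the members with such a UMI and 16741 CPM in those without. Aldoc was at 1285 against 2930 CPM, Apoe at 1232 against 2608 CPM, Hes5 at 715 against 1542 CPM and Aqp4 at 30.01 against 162 CPM. Olig1 went the other way, at 578 against 194 CPM. Nes (235 against 233 CPM) and Sox2 were close in both. Hopx (202 against 222 CPM) was required in every member by the gate, so its level is no result.

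The 44 members with an Olig2 UMI also held most of the Olig1, 843 CPM against 77.1 CPM in the other members. They had more Egfr (89.8 against 40.6 CPM), less Fabp7 (19024 against 27045 CPM) and less Dct (32.5 against 114 CPM), and genes of G2 and M phase summed to 7959 against 4163 CPM. Their median depth was 12503.5 UMIs against 10118. Of them 33 had an Mki67 or Top2a UMI, 20 an Egfr UMI and 18 an Aqp4 or Gfap UMI. Among all 97 members these counts were 61, 31 and 44. An Mki67 UMI was found in 29.9% of members and 24.8% of the Gad2 barcodes after thinning. Emx1 was found in 19 of these 44 and in 38 of all 97 members, and Dlx1 or Dlx2 in 7 of 97.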

How the data were processed

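The authors deposited whole-number UMI counts per gene and barcode for 4 droplet libraries (10x Genomics 3' chemistry per the labels' protocols), made with Cell Ranger 1.3.1 on mm10 per the submitters' processing notes, which also name Seurat. Barcodes with at least 1000 genes and at most 10% mitochondrial UMIs were kept. Mitochondrial, ribosomal protein and haemoglobin genes (13, 85 and 10) were left out of totals. Counts were summed over the barcodes of a group and scaled to CPM with Python 3.11.15 and scipy 1.17.1. The 95% intervals are conditional binomial (exact) for ratios, Poisson for CPM and Clopper-Pearson for shares, and cover counting error only. With 1 library per group and cells that are not replicates, no test was made. A group at 0 was set to a floor of 3 counts over the group. Comparisons needed 20 barcodes a side. The members and gene lists were chosen with earlier results of these data known. Beyond the lists, genes were named by the interval bound nearest to no difference (12 or 8 a direction), by up to 4 genes a list and by the 12 largest variance ratios. Genes from the lists outside that rule were named after their values were seen. Doublet-like barcodes, scored against 2 simulated doublets per barcode, were kept. The code was tested on simulated data. Alternatives included edgeR 4.0.16 TMM factors and cells thinned to 4000 UMIs.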

Additional observations from a re-analysis of the deposited data

Results flagged for a closer look

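For 2 of the named genes, and counting genes called at both ages, the barcodes that met the gate with or without Hopx differed from the rest of their own library in opposite directions at the 2 ages of the libraries with cortex in their file names. Dlx1 had a log2 ratio of -1.907 at E18.5 and 1.267 at E15.5. Snhg11, a long noncoding RNA, had -5.799 and 4.735. The difference between the ages was not tested. At E15.5 Dlx1 was found in 2 of 48 barcodes with 12 of 23 UMIs in 1, and all 35 Snhg11 UMIs lay in 1 barcode. Other named genes had ratios of opposite sign but were under the CPM minimum at 1 age, among them Reln (-3.83 at E18.5 and 6.46 at E15.5), Calb2 (-1.04 and 5.98), Nhlh2 (-1.89 and 2.93), Ifitm3 (1.78 and -2.24) and Hmga2 (-1.35 and 1.16). Calb2 and Nhlh2 had 0 UMIs in the E18.5 barcodes that met the gate, so their E18.5 values are bounds set by the floor of 3 counts. All UMIs of Reln, Calb2 and Nhlh2 in the gated E15.5 barcodes lay in 1 barcode.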

How the results depend on the processing

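No paired analysis was possible because each group is 1 library. Comparisons with the full gate at E15.5 (14 barcodes) and in the library labelled cortex E18.5 (18), and with barcodes lacking only Pax6 (18), were not run, being under 20 barcodes. With CPM minimums of 5 and 50 in place of 20, genes higher and lower than in the other kept barcodes numbered 442 and 685, and 150 and 165. They numbered 225 and 180, and 41 and 36, against the Hopx-lacking barcodes. A minimum of 50 gave 492 and 203 against E15.5. Against the other E18.5 library a minimum of 5 gave 649 higher, and one of 50 gave 176 higher and 139 lower. Means over cells gave 442 higher than the other kept barcodes and 170 lower than the Hopx-lacking ones. In thinned cells 503 were higher than in the other kept barcodes, 184 lower than in the Hopx-lacking ones and 546 higher than at E15.5. Hopx-lacking barcodes of at least 8105 UMIs gave 200 higher. Without the Hopx criterion on both sides, 224 were higher and 155 lower against the other E18.5 library. The share meeting the gate, for the libraries labelled cortex (E15.5, then E18.5) and then those labelled GE (E15.5, then E18.5), was 0.0856%, 0.142%, 0.685% and 3.83% after thinning, and 0%, 0.129%, 0.799% and 3.92% with at least 2 UMIs of each gene. That stricter gate turned the log2 ratios of Bst2, Ifitm3 and Isg15 to -2.18, -0.13 and -0.88 against the other kept barcodes. Bst2 and Ifitm3 turned to -2.22 and -0.64 against the Hopx-lacking barcodes, and Bst2 to -1.47 against the other E18.5 library. Without the Hopx criterion on both sides, Dlx1 and Dlx2 turned to 0.32 and 0.96 against E15.5. Totals of all UMIs gave 296 higher and 277 lower than the other kept barcodes. Without barcodes that held both Xist and Y-linked UMIs, 374 were higher and 464 lower than in the other kept barcodes. Against the Hopx-lacking barcodes 137 were then higher and 137 lower. The cause of these changes was not tested. The E15.5 group is small, with 48 barcodes, and no alternative replaces a second library.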
